A study of Homo sapiens with 16 samples.

Results

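Etoposide, a leukaemia drug, and genistein, an isoflavone of soy, both poison DNA topoisomerase II. The regions described here are stretches of TOP2A-bound DNA, called cleavage cluster regions, from K562 cells treated with 25 µM etoposide for 1 h or with 50 µM genistein for 1 h, both in 0.05% DMSO. Vehicle cells received 0.05% DMSO alone, and their exposure time is not recorded per library. The doses of the poisons differ, so the values are set side by side and no difference in strength is read from them. Members were the regions of the deposited etoposide and genistein lists on chromosomes 1 to 22 with a deposited value of at least 4. Overlapping genistein entries were joined, and the highest value was taken where a region carried several. This gave 140657 etoposide regions and 390110 genistein regions, 530767 in all, against 1481258 entries in the 5 lists of the series. Each list pools the amplified libraries of its treatment, 3 for etoposide, 2 for genistein and 3 for DMSO among the 16 libraries labelled. No region thus has a value per replicate, and p-values are not given. Whether the pooled libraries came from separate cultures is not stated. Intervals are 95% and cover counting error only: exact Clopper-Pearson for shares, exact binomial for ratios of region numbers in a gene, and normal on a log scale for other ratios.

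The enzyme TOP2A, DNA topoisomerase II alpha, opens both strands of one duplex, passes another duplex through the gap and seals it again, and it stays covalently bound to the DNA ends while the gap is open. A TOP2 poison holds the enzyme in that state. Etoposide is an epipodophyllotoxin that sits at the cut ends, and leukaemias with translocations, often of KMT2A, can follow treatment with it. Genistein is also known as a tyrosine kinase inhibitor and as an oestrogen receptor ligand. K562 is a human chronic myeloid leukaemia line with the BCR-ABL1 fusion, in which BCR is known as amplified and CDKN2A as deleted. BCR held 3 etoposide and 7 genistein regions, or 2.12 and 4.95 per 100 kb, against genome means of 5.38 and 14.9 per 100 kb. CDKN2A held 0 etoposide regions and 1 genistein region. The amplification was thus not seen as a higher number of regions, and the number in CDKN2A is too small to read.

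The sequences that both poisons marked at gene starts are given first. Of 33725 RefSeq promoter windows, each of 250 bases before to 50 bases after a start on GRCh38.p14, 643 were touched by an etoposide region and 1678 by a genistein region. Both touched 69, and in 50 of those the regions also overlapped each other. As shares of all windows these are 1.91% for etoposide, 4.98% for genistein and 0.205% for both. A DMSO region touched 4 of the 69, and 3.08% of all windows. The 5 windows below are those in which the lower of the etoposide and genistein values was highest, and all belong to long non-coding RNA genes. They are printed 5′ to 3′ on the strand of the gene, as RefSeq gives them. Capitals mark the bases covered by an etoposide region and a genistein region at once.
PIRAT1: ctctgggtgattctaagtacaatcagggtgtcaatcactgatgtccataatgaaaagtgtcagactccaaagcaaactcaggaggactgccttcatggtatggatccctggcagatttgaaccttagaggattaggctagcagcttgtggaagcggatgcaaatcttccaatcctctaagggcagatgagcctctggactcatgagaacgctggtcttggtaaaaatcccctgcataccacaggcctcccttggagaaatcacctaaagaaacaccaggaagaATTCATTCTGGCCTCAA
LOC124902462: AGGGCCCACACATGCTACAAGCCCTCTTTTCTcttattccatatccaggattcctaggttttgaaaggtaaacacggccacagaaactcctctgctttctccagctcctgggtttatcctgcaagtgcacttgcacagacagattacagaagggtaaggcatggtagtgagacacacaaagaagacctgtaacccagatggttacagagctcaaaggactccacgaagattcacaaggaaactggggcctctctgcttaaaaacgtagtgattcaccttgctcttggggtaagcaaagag
LINC02260: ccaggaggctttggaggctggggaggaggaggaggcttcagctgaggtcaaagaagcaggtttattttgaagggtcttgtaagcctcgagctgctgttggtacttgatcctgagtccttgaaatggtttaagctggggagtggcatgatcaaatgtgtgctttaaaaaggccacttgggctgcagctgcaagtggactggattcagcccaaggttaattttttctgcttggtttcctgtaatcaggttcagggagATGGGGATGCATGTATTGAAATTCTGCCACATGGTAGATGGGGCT
LOC107985038: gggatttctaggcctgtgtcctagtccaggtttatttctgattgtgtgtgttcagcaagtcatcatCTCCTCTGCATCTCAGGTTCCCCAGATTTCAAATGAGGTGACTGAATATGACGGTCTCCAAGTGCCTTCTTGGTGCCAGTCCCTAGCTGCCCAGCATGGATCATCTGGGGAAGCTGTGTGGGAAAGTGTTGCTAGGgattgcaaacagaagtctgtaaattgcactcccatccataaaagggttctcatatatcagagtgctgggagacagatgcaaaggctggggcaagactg
LINC02426: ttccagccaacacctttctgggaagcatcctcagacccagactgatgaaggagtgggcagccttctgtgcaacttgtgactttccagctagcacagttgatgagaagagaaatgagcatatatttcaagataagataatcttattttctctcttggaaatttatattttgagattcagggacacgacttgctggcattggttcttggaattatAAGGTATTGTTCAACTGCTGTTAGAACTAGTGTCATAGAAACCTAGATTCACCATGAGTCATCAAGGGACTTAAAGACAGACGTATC
The window of PIRAT1 lies at chr2:37829662-37829961 on the minus strand, with an etoposide value of 20.02, a genistein value of 25.76 and a DMSO value of 9.47. LOC124902462, at chr10:76304967-76305266 on the minus strand, had values of 15.93 for etoposide and 26.9 for genistein. LINC02260, at chr4:54607082-54607381 on the minus strand, had 15.28 for etoposide and 19.72 for genistein. No DMSO region touched the window of either gene. The longest common stretch of the 5, 136 bases, was in LOC107985038 at chr17:33987316-33987615 on the minus strand, with values of 17.29 for etoposide and 13.99 for genistein. LINC02426, at chr12:81953469-81953768 on the plus strand, had 18.3 for etoposide and 13.98 for genistein, also with no DMSO region. Among windows of protein-coding genes, the highest lower values were at LIN52, a subunit of the DREAM cell cycle complex, and at ERAP2, which trims peptides for antigen presentation. These were picked out after their values were seen. In both, the etoposide region and the genistein region lay apart within the window.

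Windows touched by either poison had less G and C than windows in general. Median GC was 51.3% in windows touched by etoposide, 50.0% in those touched by genistein, 47.7% in the 69 touched by both, and 58.7% in all windows. Windows touched by DMSO regions had a median of 52.3%. Of 5 equal classes by GC, etoposide touched 2.83% of the windows in the lowest and 0.311% of those in the highest. Genistein touched 8.12% in the lowest class and 1.04% in the highest, and DMSO 4.06% in the lowest and 0.489% in the highest. In none of the 5 classes did the ratio of etoposide to genistein, scaled to list size, have an interval clear of 1. One miRNA hairpin of 1461 on these chromosomes was touched by both lists, against 12 by etoposide and 41 by genistein. It is MIR4531 at chr19:44653686-44653732 on the minus strand, with a value of 12.22 in etoposide and 8.24 in genistein. Its mature RNA is shown with its seed, bases 2 to 8, in capitals.
hsa-miR-4531: aUGGAGAAggcuucuga
No other mature miRNA in the RefSeq table used here shares that seed.

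Most regions were in one of the lists and not in the other. An etoposide region overlapped a genistein region in 14408 cases, 10.2% of the etoposide list (10.1 to 10.4). Seen from the genistein list, 14496 regions or 3.72% were shared (3.66 to 3.78). The regions in only one list numbered 126249 for etoposide and 375614 for genistein. Within genistein, the 2 parts of its list described below also shared few regions, 3.76% of part 1 and 3.51% of part 2. A region in only one list is thus not read as particular to a poison. The shared regions formed 14502 pairs with a median overlap of 117 bp, which was most of a region's length, since median widths were 161 bp for etoposide and 157 bp for genistein. Etoposide regions covered 0.937% of the callable genome and genistein regions 2.58%. The share of one list that is shared rises with the length of the other, so both percentages describe the same pairs. The smallest values kept were 4.05 in both lists, held by 159 etoposide and 40 genistein regions. Just under the minimum, 51 etoposide regions had a value of 3.95 and 3075 genistein regions one of 3.94.

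Overlap was concentrated at the scale of single regions. Genistein centres lay 2.24 times as densely within 100 bp of an etoposide centre as they did 5 to 10 kb away (2.20 to 2.29). The fold was 1.34 at 100 to 200 bp, 1.07 at 200 to 500 bp and 1.01 at 2 to 5 kb. The same fall was measured for vehicle regions, with 2.44 around etoposide centres (2.37 to 2.50) and 2.05 around genistein centres (2.01 to 2.08).

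**Figure D1:**
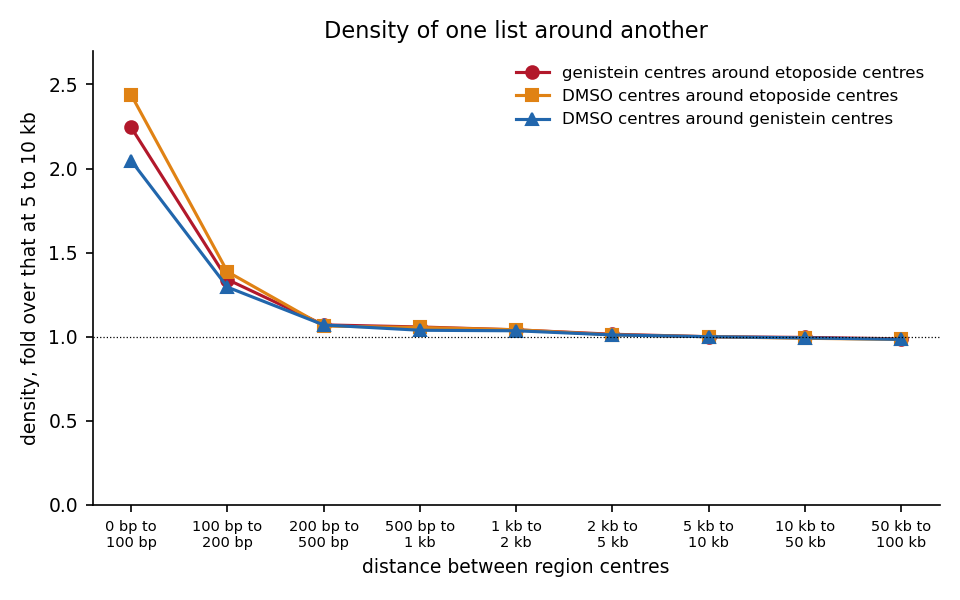
Density of region centres of one list by distance from the centres of another, as a fold over the density at 5 to 10 kb. Genistein centres around etoposide centres (circles) start at 2.24 within 100 bp, between DMSO around etoposide (squares, 2.44) and DMSO around genistein (triangles, 2.05), and all lie near 1 from 200 bp outward.

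By overlap, how strong a region was said little about whether the other poison shared it. Etoposide regions were shared in 9.64% of cases at values of 4 to 6 (9.30 to 9.98) and in 10.9% at 12 to 20 (10.5 to 11.3). Above 40 the share was 11.1%, over 1347 regions (9.51 to 12.9). The density of genistein centres within 100 bp did not rise with it. Its fold over 5 to 10 kb was 1.68 above 40 (1.33 to 2.13), on 72 pairs of centres. In the lower value classes of etoposide that fold lay between 2.18 and 2.30. Genistein regions were shared in 3.74% of cases at 4 to 6 (3.54 to 3.94) and in 3.52% above 40 (3.29 to 3.76). Within pairs the values hardly went together, with Spearman's rho of 0.086 over 14502 pairs that come from the same 2 pooled lists. Width and joining went with sharing more than the value did. Of etoposide regions of 183 to 1005 bp, 13.2% were shared, against 8.26% of those of 27 to 143 bp. Of genistein regions of 182 to 1198 bp, 4.89% were shared, against 3.07% of those of 27 to 138 bp. A wider region meets more of the other list by construction. Etoposide regions that carry several values, each read as joined from several libraries, were shared in 15.1% of 1392 cases, against 10.2% of those with 1 value. Joined genistein regions were shared in 6.10% of 10087 cases, against 3.65%. The joined regions were also wider, with medians of 221 bp for etoposide and 238 bp for genistein.

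**Figure D2:**
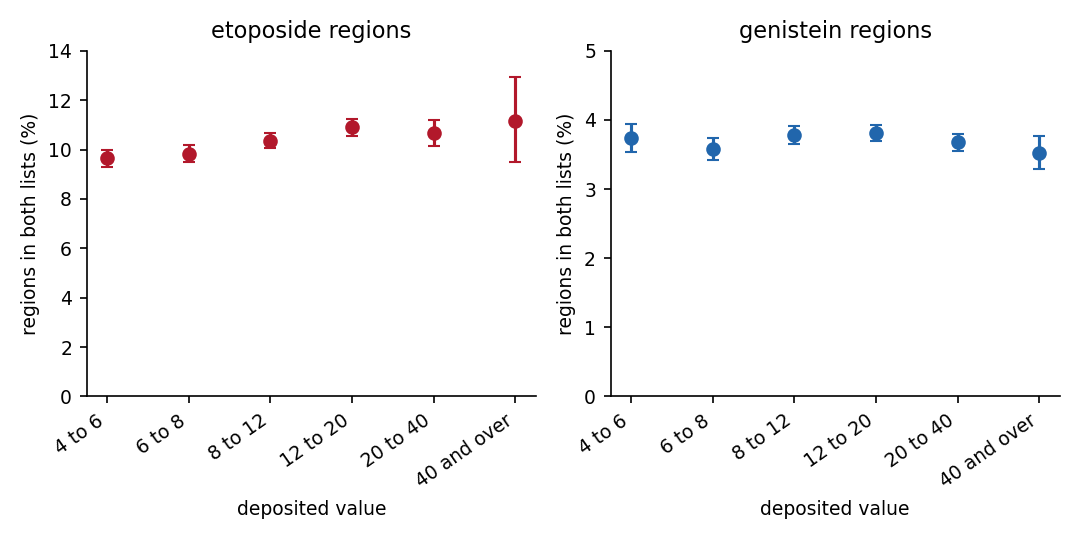
Percent of etoposide regions (left) and of genistein regions (right) that overlap a region of the other list, by deposited value, with exact 95% intervals. The etoposide shares lie between 9.64% and 11.1% and the genistein shares between 3.52% and 3.81%, with no steep change across values.

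The strongest shared regions are the 10 pairs with the highest lower value. First was a pair inside MAP2K5, which encodes a kinase of the ERK5 pathway, with an etoposide value of 73.35 at chr15:67655656-67656001 and a genistein value of 72.47 at chr15:67655762-67656027. The second, on chromosome 5 and in no annotated gene, had 49.95 in etoposide at chr5:25615727-25615903 and 55.26 in genistein at chr5:25615706-25615844. CREB3L4, a bZIP transcription factor gene, held a pair with 49.58 in etoposide and 70.52 in genistein, where mitoxantrone also had a region of 19.77. IGSF21, an immunoglobulin superfamily gene, had 62.5 in etoposide and 48.43 in genistein. ELOVL7, a fatty acid elongase gene, had 68.94 in etoposide and 47.45 in genistein. LEP, the leptin gene, had 46.87 in etoposide and 80.34 in genistein with only 22 bp in common. GRIP1, a scaffold of glutamate receptors, had 46.56 in etoposide and 46.1 in genistein. PTN, the gene of the growth factor pleiotrophin, had 44.48 in etoposide and 76.91 in genistein. The remaining pairs lay in the non-coding genes LOC105373358 and LINC02429, the latter with only 4 bp in common. There were also p-benzoquinone regions at the pair in PTN, of 6.75, and at that in LOC105373358, of 5.31. None of the 10 pairs touched a DMSO region. Of all shared etoposide regions 8.22% did, so 10 pairs are too few to read this.

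Shared regions also overlapped each of the other lists, vehicle included, more often than unshared regions did. A DMSO region overlapped 8.22% of the shared etoposide regions (7.78 to 8.69) and 5.51% of the regions only in etoposide (5.39 to 5.64). For genistein these shares were 7.97% of the shared (7.54 to 8.43) and 4.80% of the regions only in genistein (4.74 to 4.87). The centre density of DMSO within 100 bp was 3.41 times that at 5 to 10 kb around shared etoposide regions, and 2.33 times around regions only in etoposide. Around shared genistein regions it was 3.23 times and around regions only in genistein 2.00 times. Of the shared etoposide regions 19.4% met at least one of DMSO, mitoxantrone and p-benzoquinone, against 14.3% of the regions only in etoposide.

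Around etoposide centres, vehicle regions were denser than genistein regions, relative to their surroundings, in the lists as kept (2.44 and 2.24). Around genistein centres, vehicle regions gave 2.05, below the 2.24 between etoposide and genistein. Lists of equal length gave another order for genistein. With the 100000 regions of highest value from every list, 2.71% of etoposide regions overlapped genistein (2.61 to 2.81), 2.88% mitoxantrone (2.78 to 2.99), 2.49% p-benzoquinone (2.39 to 2.58) and 3.10% DMSO (3.00 to 3.21). The density fold within 100 bp was 2.04 between etoposide and genistein (1.95 to 2.15), against 2.52 between etoposide and DMSO (2.41 to 2.64). Genistein gave 2.17 with DMSO (2.07 to 2.27), an interval that overlaps the one with etoposide, and 2.20 with mitoxantrone. Mitoxantrone was given at 2 µM for 1 h, and p-benzoquinone at 8 µM for 4 h, so doses and one time differ here. The mitoxantrone list was tied by treatment to its 1 library, and p-benzoquinone had 2 amplified libraries. Among the 100000 regions the lowest value was 6.76 in etoposide and 21.34 in genistein.

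A scale for these folds was looked for in genistein itself. Low values in each list lie on regular steps, of 0.34 in most etoposide regions and of 0.339 and 0.359 in genistein. These steps were used to split the lists into a main etoposide part of 104765 regions and 2 genistein parts of 144234 and 154413 regions. No part was assigned to a labelled library, and values of 30 or more, or on no single step, were left out. The genistein steps lie close together, and how many regions were put in the wrong part was not measured. The main etoposide part shared 3.78% of its regions with genistein part 1 (3.67 to 3.90) and 4.08% with part 2 (3.96 to 4.21). Genistein part 1 shared 3.76% with part 2 (3.66 to 3.86). The density fold was 2.33 for the main etoposide part with genistein part 1 (2.24 to 2.42) and 2.35 with part 2 (2.26 to 2.43), and 2.14 between the genistein parts (2.07 to 2.21). The fold between the genistein parts was thus the lowest of these. Regions put in the wrong part may have changed it, so no ranking of the poisons is drawn from it. Such a scale depends on how a list was joined before deposit. The genistein entries still overlapped as deposited, while in the etoposide list the main part and the small part on finer steps, of 4186 regions, had 0 overlaps and gave no scale.

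**Figure D3:**
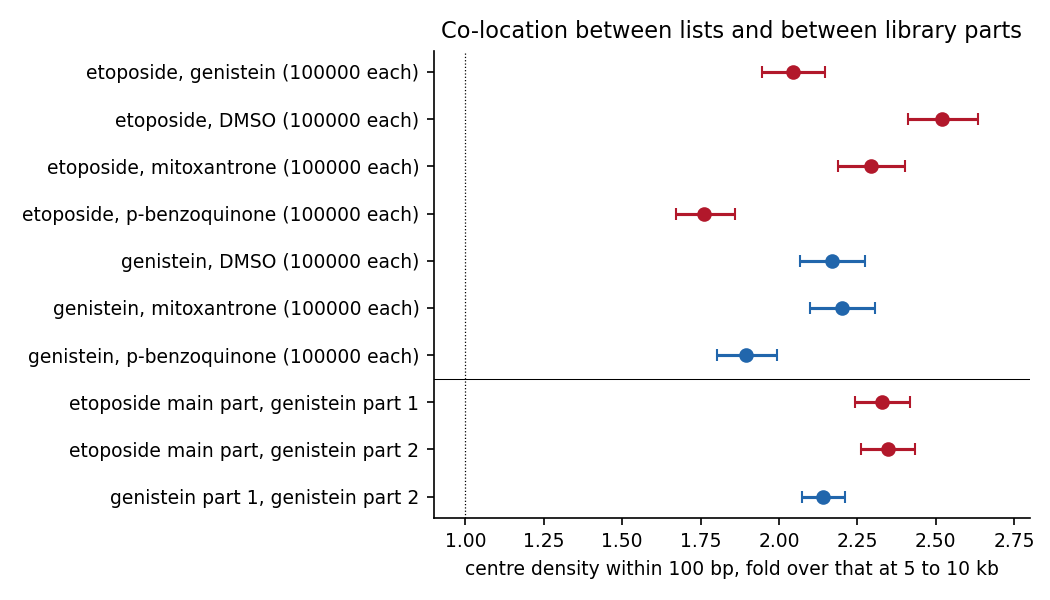
Density of region centres within 100 bp, as a fold over that at 5 to 10 kb, with 95% intervals. Above the line, pairs of lists with 100000 regions each: etoposide with genistein (2.04) lies below etoposide with DMSO (2.52). Below the line, parts split by value step: the main etoposide part with each genistein part (2.33 and 2.35) lies above the genistein parts with each other (2.14).

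Along the genome the lists ran nearly in parallel, with a small etoposide surplus where genes are dense. Gene bodies held 46.2% of etoposide and 46.1% of genistein centres, a log2 ratio of 0.0046 (−0.0049 to 0.014). The total length of gene bodies equals 46.3% of the callable genome. Within 1 kb of a coding gene start lay 1.10% of etoposide and 1.05% of genistein centres, a log2 ratio of 0.066 (−0.018 to 0.15), and 1.24% of DMSO centres. That ratio was clear of 0 without a minimum value, at 0.19 (0.11 to 0.26), and for the main etoposide part over genistein part 1, at 0.14 (0.032 to 0.25). Over genistein part 2 the interval included 0, at 0.089 (−0.018 to 0.20). It also included 0 with a minimum of 8, at 0.053 (−0.055 to 0.16), and with 100000 regions per list, at 0.063 (−0.060 to 0.19). On the coarse step alone the ratio was 0.093 (−0.0014 to 0.19). Within 5 kb of a start the log2 ratio was 0.047 (0.0099 to 0.084). The 1 Mb bins were put in 5 equal classes by their number of coding genes. In the gene-dense class, with 11 to 74 genes per bin, the median bin held 46 etoposide and 126 genistein regions. In the gene-poor class, with 0 or 1 gene per bin, it held 58 etoposide and 166 genistein regions. The log2 ratio of etoposide over genistein was 0.055 in the gene-dense class (0.036 to 0.075) and −0.036 in the gene-poor class (−0.053 to −0.019). The ratio in the gene-dense class was 0.15 without a minimum value (0.13 to 0.16), and 0.027 with 100000 regions per list (−0.0012 to 0.055), where it was no longer clear of 0. Both poisons had a smaller share of their regions in the gene-dense class than DMSO did, by log2 ratios of −0.13 for etoposide (−0.15 to −0.11) and −0.18 for genistein (−0.20 to −0.17). Coding genes shorter than 10 kb likewise had relatively more etoposide regions, with a log2 ratio of 0.13 (0.032 to 0.23), and the longer classes had ratios near 0.

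The dense-bin surplus was smaller within the parts split by value step. It was 0.041 for the main etoposide part over genistein part 1 (0.015 to 0.066) and 0.031 over part 2 (0.0055 to 0.056), against −0.0097 between the genistein parts (−0.033 to 0.014). The small etoposide part on finer steps stood apart, with 0.50 over genistein part 1 (0.42 to 0.58) and 0.46 over the main etoposide part (0.38 to 0.54). Fine steps hold 96.2% of etoposide values below 3.7, which the minimum of 4 removes. What sets this small part off was not tested.

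By chromosome, the share of etoposide regions over the share of genistein regions ran from a log2 ratio of −0.087 on chromosome 7 (−0.12 to −0.049) to 0.20 on chromosome 22 (0.11 to 0.28). Chromosome 22 held 1472 etoposide and 3560 genistein regions, 43.3 and 105 per Mb. On chromosome 7 there were 7358 etoposide and 21670 genistein regions, 47.8 and 141 per Mb. Chromosome 14, with a ratio of 0.13 (0.082 to 0.18), and chromosome 20, with 0.11 (0.050 to 0.16), came next on the etoposide side, and chromosome 1, with −0.070 (−0.10 to −0.040), on the genistein side. In all, 12 of the 22 ratios were above 0. Over the 22 chromosomes the ratio went with the number of coding genes per Mb, with Spearman's rho of 0.51, and of 0.39 without the most gene-rich chromosomes 17 and 19. On 13 chromosomes the main etoposide part lay on the same side of both genistein parts, and farther from each than these lay from each other. Of those, 9, 10, 11, 14, 17, 19, 20 and 22 were on the etoposide side and 1, 6, 7, 8 and 18 on the genistein side. Over all regions the interval included 0 for chromosome 11, at 0.023 (−0.014 to 0.060), and chromosome 18, at −0.041 (−0.092 to 0.010). How many chromosomes would meet this rule without a difference in poison was not tested. K562 carries copy number changes that both lists share, and their part in these ratios was not tested.

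**Figure D4:**
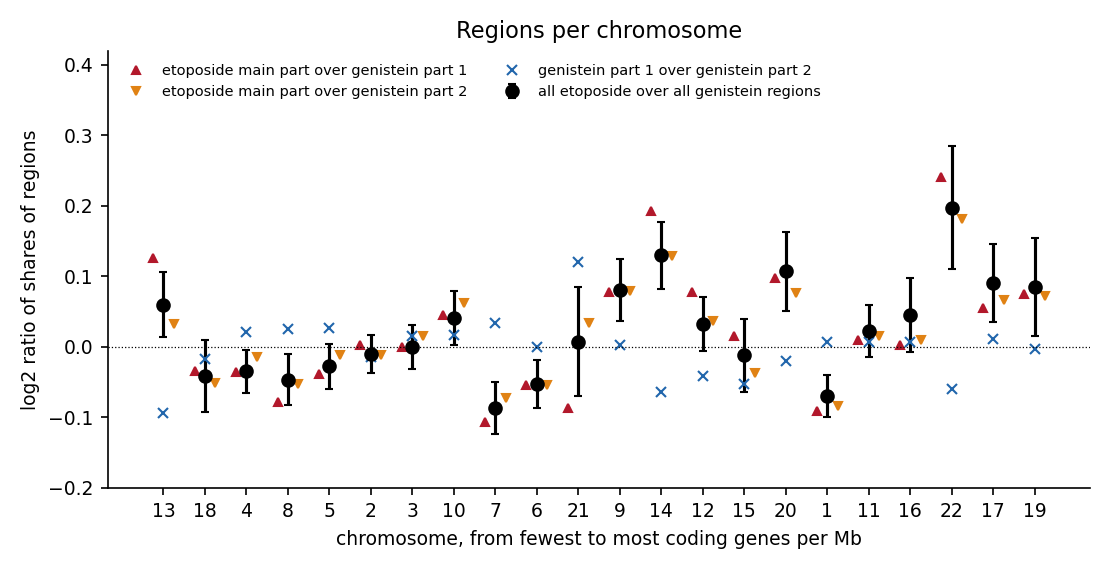
Log2 ratio of the share of etoposide regions over the share of genistein regions for chromosomes 1 to 22, from fewest to most coding genes per Mb, with 95% intervals (black). Coloured marks repeat the ratio for the main etoposide part over each genistein part (triangles) and for genistein part 1 over part 2 (crosses). Chromosome 22 is highest at 0.20 and chromosome 7 lowest at −0.087.

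In bins of 1 Mb the ratio of the poisons varied about as much as counting error gives, and in bins of 10 Mb more than that. Over bins of 1 Mb, the log2 ratio of the main etoposide part to genistein part 1 had an SD of 0.315, where counting error alone gives 0.310. For part 2 the SD was 0.312, where counting gives 0.306. Between the genistein parts the SD was 0.278, against 0.281 from counting. Over 10 Mb bins the SD was 0.147 with genistein part 1 and 0.123 with part 2, against 0.103 and 0.101 from counting, and 0.101 between the genistein parts, against 0.0933. The most extreme 1 Mb bins, ranked among those with at least 100 regions in both lists together, were picked after their values were seen. The bin chr10:114000001-115000000, with ABLIM1, TDRD1 and ADRB1, held 76 etoposide and 115 genistein regions, a log2 ratio of 0.88. The bin chr1:226000001-227000000, with PARP1, ITPKB and PSEN2, held 27 etoposide and 145 genistein regions, a log2 ratio of −0.93.

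Gene by gene, few coding genes differed by much, and those that did held few regions. A gene was counted with 2 kb on each side, counts were scaled to list size, and 0.5 was added to each count for log2 ratios and for calling 2-fold, but not for the ratios given with an interval. Of 3438 genes with at least 20 regions in both lists together, 98 were past 2-fold higher in etoposide, 2.85% of those measured, and 135 were past 2-fold lower, 3.93%. Of genes with 20 to 49 regions 9.56% were past 2-fold in either direction, of those with 50 to 99 regions 1.60%, and of the 379 genes with 100 or more none. Between the parts, 5.50% of 1418 genes were past 2-fold for the main etoposide part against genistein part 1 and 5.43% of 1511 against part 2. Between the genistein parts the share was 4.92% of 1788 genes. These comparisons differ in the regions and genes counted, and whether each part is a separate library is not known.

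The 10 highest ratios lay between 2.99 and 3.33 and rested on 11 to 20 etoposide and 10 to 18 genistein regions. IKZF3, which encodes the lymphoid transcription factor Aiolos, held 12 etoposide and 10 genistein regions, a ratio of 3.33 (1.32 to 8.60), and 9 DMSO regions. NINL, a centrosomal protein gene, had the same numbers in both poisons. MORC1, known in mice for silencing transposons in germ cells, held the most of the 10, with 20 etoposide and 18 genistein regions, a ratio of 3.08 (1.55 to 6.18), and 17 DMSO regions. TUB, the tubby gene, held 14 etoposide and 13 genistein regions. RNF24 held 13 etoposide and 11 genistein regions, of which 3 etoposide regions were shared. The others were TBC1D16, a GTPase activator gene, YTHDC2, which encodes an RNA helicase that reads m6A, EXD3, PPP1R16B, a regulatory subunit of protein phosphatase 1, and the zinc finger gene ZNF420. These ratios rest on few regions. With the 100000 regions of highest value per list, YTHDC2 had a log2 ratio of 0 (−2.42 to 2.42), against 1.60 in the lists as kept. The interval of the log2 ratio was clear of 0 in 8 of the 10 genes without a minimum value, in 5 with a minimum of 8 and in 4 with 100000 regions per list.

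The 10 lowest ratios lay between 0.111 and 0.213 and rested on 1 or 2 etoposide regions. SCN7A, a sodium channel gene, held 1 etoposide and 25 genistein regions, a ratio of 0.111 (0.0027 to 0.678), and 5 DMSO regions. DDX60L, a helicase-like gene, held 1 etoposide and 23 genistein regions, and TMEM200A 1 etoposide and 21 genistein regions. ABCG2, the efflux pump known for exporting mitoxantrone, held 1 etoposide and 19 genistein regions, a ratio of 0.146 (0.0035 to 0.918), and 9 DMSO regions. LTA4H, which makes leukotriene B4, held 1 etoposide and 19 genistein regions over 42.8 kb, the shortest gene of the 10. CEP192, which recruits centrosome material, held 2 etoposide and 27 genistein regions. SVOPL, SPAG6, a sperm flagellum gene, STMN2, a neuronal stathmin gene, and GALNT1, a glycosyltransferase gene, complete the set. The upper bounds of these ratios lay between 0.678 and 0.918. Without a minimum value, the log2 ratio of SCN7A was −1.32 (−3.44 to 0.077), against −2.62 in the lists as kept, and that of SVOPL was −1.07 (−3.21 to 0.36), against −2.30. The log2 ratio of CEP192 was then −1.14 (−2.98 to 0.15) and that of GALNT1 −1.37 (−3.49 to 0.013). Intervals were clear of 0 in 6 of the 10 genes in that setting, in 3 with a minimum of 8 and in 6 with 100000 regions per list. These genes were picked for their ratio, which is given as a description.

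**Figure D5:**
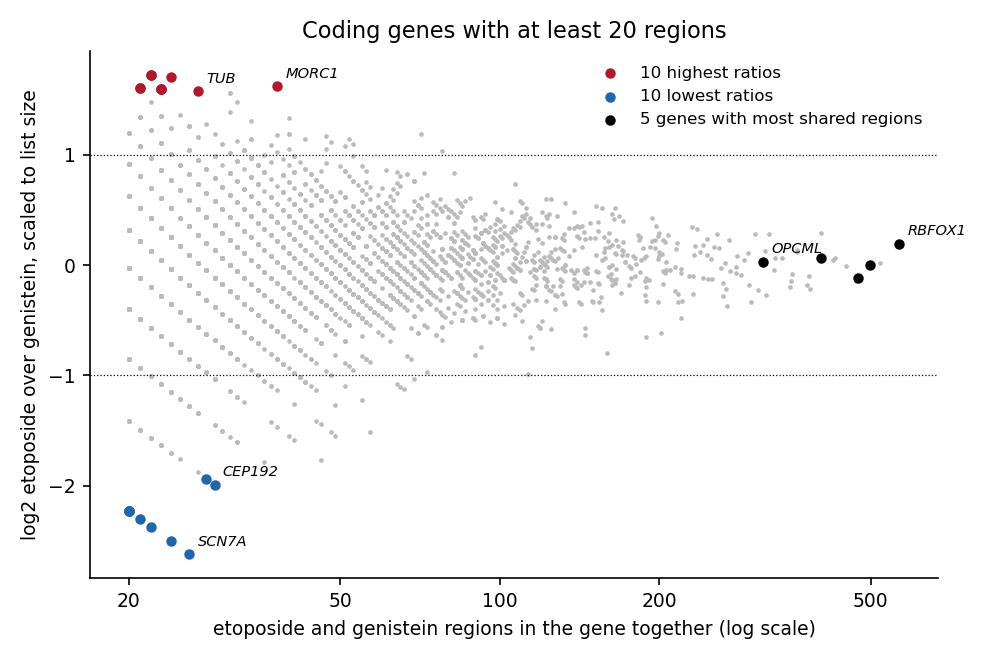
Log2 ratio of etoposide over genistein regions for 3438 coding genes by the number of regions in both lists (log scale); dotted lines mark 2-fold. The spread narrows to the right, and no gene with 100 or more regions is past 2-fold; the genes with most shared regions lie between −0.11 and 0.19.

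The genes with most shared regions were long ones. RBFOX1, a splicing regulator of 2474 kb, held 165 etoposide and 401 genistein regions, of which 17 etoposide regions were shared, a ratio of 1.14 (0.946 to 1.37). OPCML, a cell adhesion gene of 1118 kb, also had 17 shared, among 84 etoposide and 229 genistein regions, a ratio of 1.02 (0.783 to 1.31). CSMD1 had 16 shared regions, and DLG2, a synaptic scaffold gene, and PCDH15, a protocadherin gene of sensory hair cells, had 15 each. Over coding genes, 12647 held an etoposide region, 15789 a genistein region and 4148 a shared one, of 19126.

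The gene lists cover known roles of the poisons and, beside these, erythroid, common fragile site and housekeeping genes. In each of the 8 lists the interval of the pooled ratio included 1. With a minimum value of 8, the tyrosine kinase list had a log2 ratio of 0.30 (0.0071 to 0.58), clear of 0, against 0.12 in the lists as kept. In all 147 members were looked up, 58 had at least 20 regions, and 13 had no region in either list. Of the 58, 1 was past 2-fold higher in etoposide, or 1.72%, and 3 were lower, or 5.17%, beside 2.85% and 3.93% of all genes measured. Across all members with a region, 134 in number, 3 had a ratio whose interval was clear of 1, PTPRG above it and ABCG2 and IMMP2L below. Of all 16458 coding genes with a region, 0.936% had an interval above 1 and 0.395% one below, though many of those genes hold too few regions to give one.

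The leukaemia translocation genes, which bear on etoposide, held 193 etoposide and 571 genistein regions, a ratio of 0.937 (0.792 to 1.11). Their median log2 ratio was −0.13 over the 12 members with at least 20 regions, beside 0.021 for all genes measured. MECOM, a myeloid transcription factor gene, held 31 etoposide and 111 genistein regions. MLLT3, a partner of KMT2A, held 22 etoposide and 46 genistein regions. KMT2A itself, looked up for its role in leukaemia after etoposide and outside the naming rule, held 6 etoposide and 18 genistein regions, a ratio of 0.924 (0.300 to 2.43), and 1 of the etoposide regions was shared. The ABL1 gene held 1 etoposide region and 4 genistein regions.

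Topoisomerase and break repair genes held 99 etoposide and 298 genistein regions, a ratio of 0.921 (0.726 to 1.16), with a median log2 ratio of −0.19 over 8 members. XRCC4, a partner of DNA ligase IV, held 27 etoposide and 55 genistein regions. PRKDC, the catalytic subunit of DNA-PK, held 6 etoposide and 36 genistein regions and was the 1 member past 2-fold lower, at a ratio of 0.462 (0.159 to 1.11). ATM, the break signalling kinase, held 6 etoposide and 33 genistein regions. TOP2A held 0 etoposide and 5 genistein regions, too few for a fold, and TOP2B held 3 etoposide and 16 genistein regions. Both are named outside the rule as the poisons' targets.

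Tyrosine kinase genes, which bear on genistein, held 219 etoposide and 561 genistein regions, a ratio of 1.08 (0.922 to 1.27), with a median log2 ratio of −0.010 over 13 members. ERBB4, a neuregulin receptor gene, held 60 etoposide and 143 genistein regions, IGF1R, the IGF receptor gene, 25 etoposide and 60 genistein regions, and PTK2, the focal adhesion kinase gene, 16 etoposide and 62 genistein regions. FGFR2 was the 1 member past 2-fold higher in etoposide, with 9 etoposide and 11 genistein regions and a ratio of 2.27 (0.831 to 6.02). Oestrogen receptor and response genes held 59 etoposide and 211 genistein regions, a ratio of 0.776 (0.571 to 1.04), with a median log2 ratio of −0.40 over 5 members. ESR1, oestrogen receptor alpha, held 21 etoposide and 78 genistein regions, and GREB1, which oestrogen induces, 17 etoposide and 24 genistein regions. PGR, the progesterone receptor gene, held 5 etoposide and 25 genistein regions. ESR2, oestrogen receptor beta, was past 2-fold lower, with 4 etoposide and 25 genistein regions and a ratio of 0.444 (0.112 to 1.29). FGFR2 and ESR2 are outside the naming rule and were picked after their values were seen, as were PTPRG and IMMP2L.

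Drug transport and conjugation genes held 54 etoposide and 164 genistein regions, a ratio of 0.913 (0.659 to 1.25), with a median log2 ratio of −0.41 over 3 members. ABCC4, an efflux pump gene, held 19 etoposide and 50 genistein regions, and ABCB1, which encodes P-glycoprotein, an exporter of etoposide, 11 etoposide and 42 genistein regions. ABCG2, described above, was the third member and the 1 past 2-fold lower. Erythroid genes held 56 etoposide and 126 genistein regions, a ratio of 1.23 (0.883 to 1.70), with a median log2 ratio of 0.44 over 2 members. ANK1, the red cell ankyrin gene, held 21 etoposide and 36 genistein regions. BCL11A, a repressor of fetal globin, held 11 etoposide and 28 genistein regions.

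Common fragile site genes held 1346 etoposide and 3784 genistein regions, the most of any list, and a ratio of 0.987 (0.926 to 1.05), with a median log2 ratio of −0.012 over 15 members. DLG2 held 132 etoposide and 367 genistein regions, CSMD1 118 etoposide and 355 genistein regions, and CNTNAP2, a neurexin family gene, 115 etoposide and 354 genistein regions. PTPRG, a phosphatase gene, had a ratio of 1.42 (1.01 to 1.98) and IMMP2L, a mitochondrial peptidase gene, 0.647 (0.442 to 0.925). Housekeeping genes are short and held 8 etoposide and 17 genistein regions, a ratio of 1.31 (0.488 to 3.19). No member had 20 regions. TBP, the TATA box binding protein gene, held 2 etoposide and 4 genistein regions, and GAPDH and PPIA each held 1 etoposide and 2 genistein regions.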

How the data were processed

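TOP2A was immunocaptured from K562 lysates, and libraries from the released DNA, pre-amplified in the groups used here, were sequenced as single 50 nt reads, per the labels' protocols. The submitters' processing notes list SAMtools 0.1.19, Bowtie2 2.1.0 and the build hg38. What called the regions is not given in the sources used here. For each treatment the authors deposited 1 list, pooled where there were several libraries, in which a region has a start, an end and a score. The deposited score, called the value here, has no stated unit, and the depth of each library is unknown. Values were used within a list, except in the common minimum and in ranking windows and pairs by the lower value. The minimum of 4 kept 80.9% of etoposide and 98.6% of genistein regions. The reads carry no stated molecular identifier, and copies made by PCR are not separate molecules, so intervals cover counting error only.

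Regions were counted by their centres, with 1 bp as the least overlap. The callable genome was all parts of 100 kb that held a region of any list, 2615.6 Mb in total. Bins of 1 Mb were used where at least 5 of their 10 parts were callable. Genes and promoter windows came from RefSeq tables of GRCh38.p14, and 15101 of 19126 coding genes had a start. A value was put on a step when it lay within 0.022 of one of the coarse steps, or within 0.014 of a fine one, below 30. Overlaps, densities and steps were tested on simulated data.

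The genes named are the 10 highest and 10 lowest ratios, the 5 with most shared regions, the 10 strongest shared pairs, the 5 strongest common promoter windows, and the 3 members of each gene list with most regions. Exceptions are stated where they occur, and part of the list members so chosen is not reported here. The members and lists were chosen with earlier results of these data known, and 1 housekeeping member was removed as wrongly listed after the values were seen. Values were computed in Python 3.11.15 (pandas 2.3.3, numpy 2.4.6, scipy 1.17.1) and drawn with matplotlib 3.10.9.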

Additional observations from a re-analysis of the deposited data

How the results depend on the processing

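No paired analysis was possible because each list pools its libraries, and for the same reason leaving out single replicates was not run. The parts split by value step and the window around either gene end were chosen after seeing the data. Among the results rerun, none changed direction in a value whose interval was clear of 0. The ratios by chromosome, by gene length and in the gene-poor class were not rerun with other minimum values or lists of equal length. Of 264 values for named genes and gene lists under the alternatives 4 left the interval of the reported value, which is wide for single genes. The shares of overlap between the poisons and the density fold, with narrow intervals, left them in most alternatives.

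Without a minimum value, 10.0% of etoposide and 4.41% of genistein regions were shared, DMSO overlapped 11.1% of shared, 8.17% of etoposide-only and 6.67% of genistein-only regions, the density fold was 2.19, and the log2 ratios were 0.019 in gene bodies, 0.19 at gene starts and 0.15 in gene-dense bins. With a minimum of 8, the shares were 8.50% and 2.32%, those in DMSO 5.73%, 3.58% and 3.03%, the fold 2.30 and the dense-bin ratio 0.046 (0.021 to 0.070). With 100000 regions per list, the shares were 2.71% in each list, those in DMSO 4.47%, 3.07% and 2.82%, the fold 2.04, the log2 ratios −0.013 in gene bodies and 0.027 in gene-dense bins (−0.0012 to 0.055), and 40 genes were higher and 37 lower past 2-fold of 1102. On the coarse step alone, the shares were 8.83% and 2.74%, those in DMSO 7.61% of shared and 5.37% of etoposide-only regions, the fold 2.32 and the dense-bin ratio 0.035. With 50% of the shorter region as the least overlap, the shares were 7.44% and 2.69%, and those in DMSO 6.55%, 4.05% and 3.45%. With centres within 500 bp, they were 20.2% and 7.57%, and 12.8%, 10.6% and 10.1% in DMSO. With at least 40 regions per gene, 13 genes were higher and 27 lower of 1513. For the main etoposide part against genistein part 1, the shares were 3.78% and 2.75%, the fold 2.33, and 43 genes were higher and 35 lower. Against part 2, the shares were 4.08% and 2.77%, the fold 2.35, the dense-bin ratio 0.031, the DMSO shares 7.43% of shared and 4.92% of genistein-only regions, and 41 genes were higher and 41 lower. In each alternative that gives these shares, shared regions overlapped DMSO more often than etoposide-only and genistein-only regions did. The cause of these changes was not tested, except that fewer or narrower regions give fewer overlaps by construction.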
